A study of Bos taurus with 18 samples.

Results

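The early response of bovine dermal fibroblasts to lipopolysaccharide (LPS), a component of the outer membrane of Gram-negative bacteria, was measured in cultures collected from animals at 5 months of age. The comparison uses 6 of the 18 RNA-Seq libraries of the series, chosen by their labels: the 3 cultures collected at 5 months and exposed to LPS for 2 h, against the same 3 cultures at 0 h, paired by animal. The cultures came from 3 Holstein heifers of a larger collection, which the study selected as mid-level responders for interleukin 8 production. Each animal gave 1 culture at this age, revived from cells frozen at the fifth passage, and the lysates of duplicate wells were pooled before RNA isolation. All wells at 2 h had received LPS at 100 ng/ml in medium with fetal bovine serum and an insulin supplement, and the 0 h wells are the baseline. No cultures kept for 2 h without LPS were analysed here, so changes with LPS and changes with time or handling after 0 h cannot be told apart. Replicates are named by the animal number, and n = 3 animals at each time throughout. Later paragraphs also use the 8 h libraries of these cultures. For a comparison of ages they use the 0 h and 2 h libraries of cultures collected from the same 3 animals at 16 months.

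LPS is recognised at the cell surface by Toll-like receptor 4 with its partners LY96 and CD14. The adaptors MYD88 and TICAM1 carry the signal to NF-kB, to the MAP kinases and to interferon regulatory factors. NF-kB is held in the cytoplasm by inhibitor proteins, and when these are degraded it enters the nucleus and switches on chemokines, cytokines and its own inhibitors. Immediate early genes, many of which encode transcription factors of the AP-1 and EGR families, are transcribed within minutes of a stimulus without new protein synthesis, and their mRNAs are short-lived. Fibroblasts are among the first cells of the skin to meet bacterial products and recruit neutrophils and monocytes by secreting chemokines.

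The files hold the number of reads assigned to each gene window, which spans a gene with its introns. Levels are given as CPM, the counts of a gene per 1000000 gene-window counts of its library, in the order of animals 1, 2 and 3, and are compared between times and never between genes. Log2 changes come from libraries scaled by TMM factors, so they can differ a little from the ratio of the printed CPM values. Total reads ranged from 41064293 to 108597957 in the 6 libraries and gene-window counts from 51495294 to 128698264. The share of reads matched to the genome ran from 95.25% to 97.37%. The 0 h library of animal 2 and the 2 h library of animal 3 were at the low end of that range and had 24.472% and 25.425% of their counts between genes, against 19.273% to 22.518% in the other 4. The libraries of animals 1 and 3 were more alike (SD of the log2 difference over genes 0.213 at 0 h and 0.241 at 2 h) than either was to animal 2 (0.378 to 0.428). The labelled cell type was checked by its markers. The 16 fibroblast markers summed to between 85020 and 117700 CPM in each library, and all 16 were above 1 CPM. The 12 macrophage markers summed to 2.46 to 3.82 CPM, with TYROBP at 0, the 12 keratinocyte markers to 1.31 to 2.22 CPM, with KRT14 and KRT1 at 0, and the 10 endothelial markers to 2.27 to 3.46 CPM, with CLDN5 at 0. The 9 smooth muscle and pericyte markers in the files were well above that, at 968.5 to 1582 CPM, led by SYNPO2, ACTG2 and CNN1, genes of the contractile skeleton. In none of these 5 sums were the 0 h and 2 h libraries separated.

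A total of 12857 of the 27550 gene windows had at least 1 CPM in at least 3 of the 6 libraries and were tested with the quasi-likelihood F test of edgeR, with the animal as block. A call needed a fold change of at least 2 and a p under 0.05 after Benjamini-Hochberg adjustment over all genes tested. Of the genes tested, 217 (1.69%) were called higher at 2 h and 104 (0.809%) lower, and the median log2 fold change over all genes was 0.00. Rises were larger than falls. The rises had a median log2 size of 1.66, and 34 of them were at 3 or above, while the falls had a median of 1.23 with 3 at or above that size. The ratio of 2 h to 0 h within an animal went the way of the fitted change in 3 of 3 animals for 216 of the rises and for all 104 falls. The 2 h libraries lay wholly above the 0 h libraries for 211 of the rises (1710 of all genes tested, 13.3%) and wholly below for 103 of the falls (1921 of all, 14.9%). Without a fold minimum, 1608 genes were higher (12.5%) and 1360 lower (10.6%) at an adjusted p under 0.05. Of the 217 rises, 24 were under 1 CPM in every 0 h library, so they were tested only because of their 2 h level and had to differ. Likewise, 16 of the 104 falls were under 1 CPM in every 2 h library and were tested only because of their 0 h level. Such genes are included in the shares and separations given here and below. Leaving out animal 3 gave 184 rises and 61 falls, and leaving out animal 2 gave 278 and 146. A fit of 12 libraries of both ages gave 83 and 10, or 215 and 109 without the 16-month culture of animal 3, and among genes named below it lost IL8 (adjusted p = 0.0615) and 23 others, none of them without that culture. In bulk RNA, a change in the share of responding cells and a change in the RNA of each cell cannot be told apart.

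**Figure D1:**
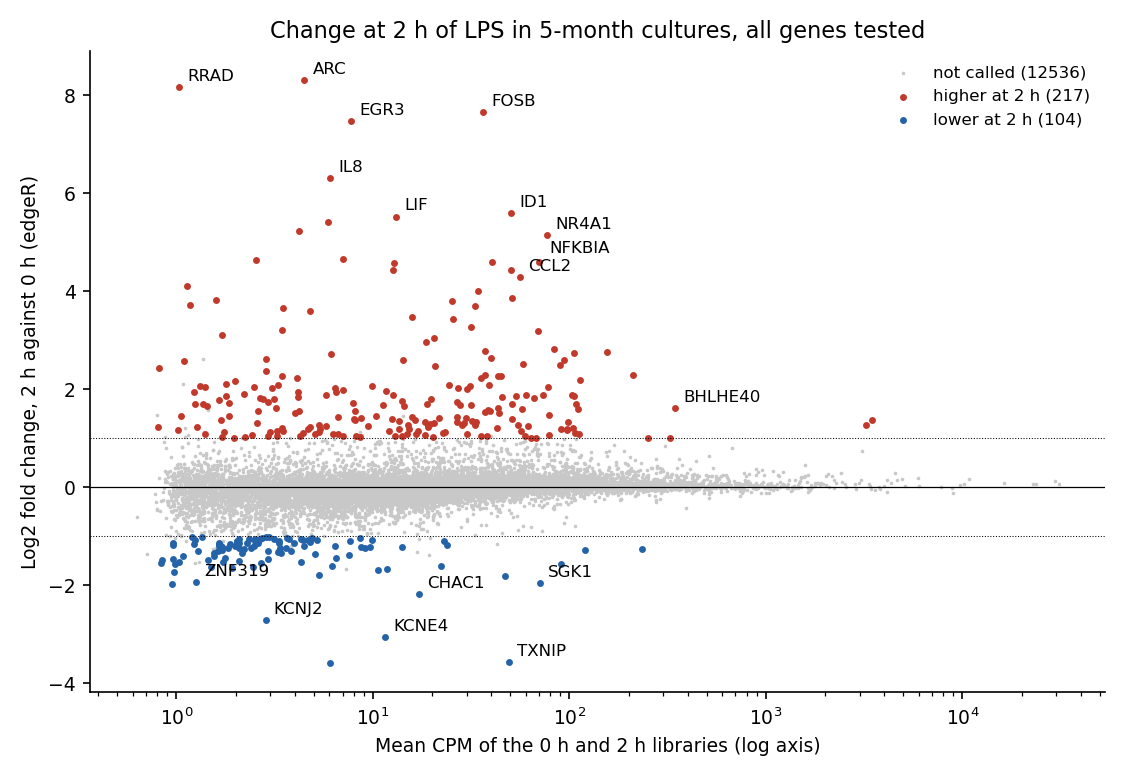
Each point is 1 of the 12857 genes tested. The horizontal axis is the mean CPM of the 3 libraries at 0 h and the 3 at 2 h (log axis), the vertical axis is the log2 fold change at 2 h from edgeR, and the dotted lines mark a fold change of 2. The 217 genes called higher reach a log2 change of 8.31 (ARC), and the 104 called lower reach -3.59.

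Immediate early genes, most of them transcription factors, held 3 of the 4 largest rises. Of 30 listed genes 29 were tested, and 17 of them (58.6%, against 1.69% of all genes) were called higher and none lower, with a median log2 change of 1.40. Of the 12 that were not called, 5 more were higher at an adjusted p under 0.05 and KLF2, a factor of the Krüppel-like family, was lower (log2 change -0.91, adjusted p = 0.00641 in edgeR). ARC, an early gene best known from neurons (chromosome 14, 2892673 to 2894998, build UMD 3.1), measured 0.01296, 0.0235 and 0.0448 CPM at 0 h and 8.12, 6.89 and 11.7 CPM at 2 h. The 0 h libraries held 9 ARC reads in all, so the fitted log2 change of 8.31 (SE 0.171, adjusted p = 6.64e-05 in edgeR) rests on a near-empty baseline. Counted directly, the pooled CPM ratio was 327 (95% interval for counting error 172 to 715).

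FOSB, which encodes an AP-1 subunit (chromosome 18, 53501995 to 53508418), went from 0.246, 0.697 and 0.188 CPM to 55.4, 81.7 and 80.7 CPM. The lowest 2 h value was far above the highest 0 h value, and the log2 change was 7.66 (SE 0.271, adjusted p = 0.000253 in edgeR). EGR3, a zinc finger factor of the early growth response family (chromosome 8, 70502499 to 70506409), went from 0.1296, 0.0391 and 0.117 CPM to 15.8, 11.9 and 18.3 CPM. This was a log2 change of 7.47 (SE 0.187, adjusted p = 9.29e-05 in edgeR). NR4A1, an orphan nuclear receptor (chromosome 5, 27977007 to 27992869), differed from these in having a clear baseline. It measured 4.36, 4.54 and 3.84 CPM at 0 h and 161, 90.01 and 199.9 CPM at 2 h, with animal 2 lowest at 2 h and no overlap between the times (log2 change 5.15, SE 0.265, adjusted p = 0.000779).

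Other AP-1 and early genes rose less. FOSL1 rose by a log2 change of 3.86, JUNB by 2.59 and JUN by 1.40, and the called list also held EGR2, CSRNP1, KLF10, MAFF, MAFK, IER2, IER5, NR4A3, BHLHE40 and BTG2. EGR2, EGR3, ARC and FOSB were under 1 CPM in every 0 h library and were tested through their 2 h levels. FOS itself, the founding member of its family, was not called. It measured 22.2, 42.6 and 21.8 CPM at 0 h and 28.5, 39.7 and 37.8 CPM at 2 h, groups that overlapped (log2 change 0.43, SE 0.145, adjusted p = 0.0923 in edgeR). EGR1 was not called either, with means of 8.02 ± 3.74 CPM and 20.6 ± 9.79 CPM (SD; log2 change 1.46, SE 0.551, adjusted p = 0.123).

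Among NF-kB components and inhibitors, 9 of 21 tested genes (42.9%, against 1.69% of all genes) were called higher and none lower, with a median log2 change of 0.88. NFKBIA, which encodes the inhibitor IkB alpha (chromosome 21, 46065546 to 46068942), measured 5.46, 6.21 and 5.73 CPM at 0 h and 154, 122 and 127 CPM at 2 h. The 3 animals were close at both times, and the log2 change was 4.60 (SE 0.104, adjusted p = 7.51e-05 in edgeR). TNFAIP3, the ubiquitin-editing enzyme A20 (chromosome 9, 76766557 to 76776874), rose from 0.531, 1.28 and 1.31 CPM to 28.9, 24.9 and 19.7 CPM, highest in animal 1 (log2 change 4.58, SE 0.326, adjusted p = 0.00174). NFKBIZ, an atypical IkB protein of the nucleus, rose from 3.79, 4.89 and 3.71 CPM to 80.3, 51.5 and 61.3 CPM (log2 change 4.01, SE 0.185, adjusted p = 0.000541). ZC3H12A, an RNase that degrades cytokine mRNAs, had nearly the same level in the 3 animals at 0 h (4.58, 4.602 and 4.59 CPM) and rose to 45.1, 28.6 and 35.9 CPM (log2 change 3.04, SE 0.119, adjusted p = 0.000358). BIRC3, BCL3, RELB, NFKBID and NFKB1 were called with log2 changes between 1.03 and 2.06. The subunit RELA was not called, with means of 59.6 ± 1.76 CPM at 0 h and 58.95 ± 3.005 CPM at 2 h (SD; log2 change 0.07, SE 0.0359, adjusted p = 0.246), nor were the kinase genes CHUK, IKBKB and IKBKG. REL was below the filter.

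Feedback inhibitors of MAP kinase signalling, cytokine signalling and mRNA stability gave 12 called rises (50%) and 1 called fall (4.2%) among 24 tested genes, against 1.69% and 0.809% of all genes, with a median log2 change of 0.96. DUSP5, a phosphatase of nuclear ERK (chromosome 26, 31326750 to 31339518), measured 0.181, 1.06 and 0.502 CPM at 0 h and 12.9, 16.3 and 11.4 CPM at 2 h (log2 change 4.65, SE 0.333, adjusted p = 0.00177 in edgeR). DUSP6, a phosphatase of cytoplasmic ERK (chromosome 5, 19276348 to 19280028), measured 3.94, 2.87 and 3.98 CPM and 39.4, 50.4 and 51.8 CPM (log2 change 3.81, SE 0.166, adjusted p = 0.000476). In both genes every 2 h library was above every 0 h library. RGS16, a regulator of G protein signalling, rose from 0.0907, 0.587 and 0.0627 CPM to 3.26, 2.73 and 2.84 CPM, and animal 2 had the highest baseline (log2 change 3.83, SE 0.632, adjusted p = 0.014). This call was lost without animal 3, and its adjusted p ran from 5.92e-08 to 0.117 over the alternatives tried. RGS16 was under 1 CPM in every 0 h library and passed the filter only through 2 h, so its times could not overlap. IER3, a short-lived survival factor, rose from 31.2, 25.5 and 29.3 CPM to 236, 141 and 173 CPM (log2 change 2.73, SE 0.092, adjusted p = 0.000234), in a window that overlaps BOLA. Members of 1 family moved in opposite directions. SPRY2 and SPRY4 were called higher (log2 change 1.39 and 1.02), while SPRY1, which like them restrains receptor tyrosine kinase signalling, fell from 9.98, 4.81 and 10.4 CPM to 2.12, 1.79 and 2.63 CPM (log2 change -1.79, SE 0.178, adjusted p = 0.00374). Similarly, GADD45B was called higher (log2 change 1.88), whereas GADD45A and GADD45G were lower at adjusted p = 0.00298 and 0.00916 with log2 changes of -0.79 and -0.73, short of the fold minimum.

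Chemokines were mostly too low to be tested. Of 24 listed genes 21 were in the files and 7 were tested, of which 4 (57.1%, against 1.69% of all genes) were called higher and none lower. IL8, the neutrophil attractant also named CXCL8 (chromosome 6, 90559882 to 90563647), measured 0.181, 0.102 and 0.1702 CPM at 0 h and 18.02, 8.17 and 9.503 CPM at 2 h. Animal 1 was highest at both times, and IL8 passed the filter only through its 2 h libraries, so the times could not overlap (log2 change 6.31, SE 0.166, adjusted p = 9.96e-05 in edgeR). CXCL2, another neutrophil attractant, rose from 4.51, 1.64 and 4.21 CPM to 112, 52.2 and 68.7 CPM (log2 change 4.60, SE 0.211, adjusted p = 0.000541). The CXCL2 window (chromosome 6, 90695494 to 90824841) overlaps LOC100847175, and CXC chemokine genes of this kind have near-identical copies, so the assignment of these reads is uncertain. CCL2, the monocyte attractant (chromosome 19, 16232956 to 16234822), rose from 6.404, 2.36 and 6.28 CPM to 167, 27.4 and 125 CPM (log2 change 4.29, SE 0.217, adjusted p = 0.000724). Animal 2 was lowest at 0 h and at 2 h. CCL5, an attractant of T cells and monocytes (chromosome 19, 14823470 to 14831157), rose from 0.907, 0.235 and 1.299 CPM to 12.7, 5.08 and 8.66 CPM, again lowest in animal 2 (log2 change 3.59, SE 0.332, adjusted p = 0.0031). CXCL12, CXCL16 and CCL26 were tested and not called, with log2 changes of -0.09, 0.10 and -0.16.

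A few chemokine and cytokine genes below the filter had reads at 2 h that were nearly absent at 0 h. They were not tested, and their ratios are given with counting error only. CX3CL1, a membrane-bound chemokine, had 0 reads at 0 h and 205 at 2 h (0.893, 0.499 and 0.831 CPM). Against a floor of 3 reads over the 0 h group this was at least 76.0-fold higher. CCL20, an attractant of dendritic cells and lymphocytes, had 0 reads at 0 h and 77 at 2 h (0.738, 0.307 and 0.0544 CPM, lowest in animal 3), or at least 28.6-fold higher. TNF, the cytokine that spreads the inflammatory signal, went from 0.0389, 0.04696 and 0.00896 CPM to 1.44, 0.47 and 0.925 CPM, a pooled ratio of 26.9 (95% interval 14.4 to 56.9) that rests on 10 reads at 0 h, in a window overlapping LOC100847561. CD83, an activation marker of dendritic cells, was measured by 2 reads at 0 h and 588 at 2 h (ratio 327, interval 90.2 to 2710). IL11, a cytokine of the IL-6 family, went from 0.2204, 0.0939 and 0.152 CPM to 2.54, 0.815 and 2.28 CPM (ratio 12.3, interval 9.11 to 17.1), in a window overlapping TMEM190. CX3CL1, CD83 and IL11 were named because every 2 h library was above every 0 h library, which held for 5.2% of the 9378 gene windows below the filter with reads. SAA3, an acute phase protein, had 0 reads at 0 h and 1 read at 2 h, so no rise was detectable at this depth.

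Of 34 cytokine and growth factor genes, 19 were tested, 4 (21.1%, against 1.69% of all genes) were called higher and none lower, and the median log2 change was 0.30. LIF, a cytokine that signals through gp130 (chromosome 17, 71413855 to 71418166), measured 0.272, 0.884 and 0.493 CPM at 0 h and 30.7, 20.7 and 25.2 CPM at 2 h. All 2 h values were at least 20 CPM and all 0 h values under 1 CPM (log2 change 5.52, SE 0.353, adjusted p = 0.0013 in edgeR). IL6, which signals through the same receptor chain (chromosome 4, 31578311 to 31582679), measured 0.0389, 0.5401 and 0.0448 CPM and 7.15, 4.06 and 3.33 CPM. The 0 h value of animal 2 was far above those of the other animals (log2 change 4.64, SE 0.725, adjusted p = 0.0123), and the call was lost without animal 3, with an adjusted p from 1.06e-07 to 0.15 over the alternatives. IL1A, an alarm cytokine, went from 0.0519, 0.0313 and 0.493 CPM to 3.22, 1.57 and 1.66 CPM (log2 change 3.71, SE 0.825, adjusted p = 0.0318), and its call was lost without animal 1 (adjusted p from 5.23e-05 to 0.177 over the alternatives). HBEGF, a ligand of the EGF receptor, went from 1.32, 2.59 and 1.27 CPM to 10.6, 11.8 and 9.02 CPM (log2 change 2.72, SE 0.161, adjusted p = 0.00112). LIF, IL6 and IL1A were under 1 CPM in every 0 h library, so they passed the filter only through 2 h and their times could not overlap. They make up 3 of the 4 calls in the share of 21.1%. The growth factors TGFB1 (log2 change 0.78, adjusted p = 0.000703) and TGFB2 (0.28, adjusted p = 0.00616) were higher by less than the fold minimum. IL1B, the sister cytokine of IL1A, was below the filter, at 0.2204, 0.102 and 0.125 CPM and 0.466, 0.182 and 0.1399 CPM.

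Among adhesion, prostaglandin, acute phase and protease genes, 6 of 14 tested (42.9%, against 1.69% of all genes) were called higher and none lower (median log2 change 0.65). F3, tissue factor, the starter of blood coagulation (chromosome 3, 49110156 to 49121034), rose from 6.002, 4.07 and 3.42 CPM to 148, 57.7 and 83.5 CPM (log2 change 4.43, SE 0.164, adjusted p = 0.000297 in edgeR). PTGS2, the inducible cyclooxygenase of prostaglandin synthesis (chromosome 16, 69263776 to 69271399), rose from 5.02, 3.25 and 4.08 CPM to 73.3, 20.4 and 47.4 CPM, with the lowest 2 h value in animal 2 (log2 change 3.44, SE 0.219, adjusted p = 0.0013). Its window overlaps LOC100138376. HAS2, a hyaluronan synthase, was under 1 CPM in every 0 h library and rose from 0.389, 0.282 and 0.376 CPM to 4.16, 1.496 and 3.52 CPM (log2 change 3.1, SE 0.227, adjusted p = 0.00189). CFB, complement factor B, was called (log2 change 2.16, SE 0.221, adjusted p = 0.00404) although its times overlapped: 1.04, 0.211 and 0.896 CPM at 0 h and 6.04, 0.873 and 2.88 CPM at 2 h, where the rise lay within each animal. PLAUR, the urokinase receptor, was also called (log2 change 1.83). ICAM1, PTGES, C3, SOD2, TIMP1, TNC, PLAU and CH25H were tested and not called. The adhesion molecule VCAM1, below the filter, went from 0.156, 0.0939 and 0.117 CPM to 0.233, 0.412 and 0.264 CPM.

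No change of the LPS receptor itself was called. TLR4 (chromosome 8, 108828899 to 108839911) measured 1.17, 1.27 and 1.299 CPM at 0 h and 0.738, 0.959 and 0.987 CPM at 2 h. Its 2 h libraries were all lower, but the change was not called (log2 change -0.39, SE 0.163, adjusted p = 0.153 in edgeR). CD14 was below the filter, at 0.324, 0.0939 and 0.179 CPM and 0.136, 0.115 and 0.202 CPM, 57 reads and 45 reads in all, and the times overlapped. Its partner LY96 had means of 15.9 ± 0.487 CPM and 16.6 ± 0.846 CPM (SD; log2 change 0.14, SE 0.0507, adjusted p = 0.119), and MYD88 of 29.2 ± 0.365 CPM and 25.6 ± 0.764 CPM (SD; log2 change -0.10, SE 0.0318, adjusted p = 0.0745). Of 19 tested genes of the receptor and its adaptors 2 (10.5%) were called higher and none lower, against 1.69% and 0.809% of all genes. At any fold 26.3% were higher and 10.5% lower at an adjusted p under 0.05, against 12.5% and 10.6% of all genes. MAP3K8, the kinase that links NF-kB signalling to ERK (chromosome 13, 35600313 to 35626617), was under 1 CPM in every 0 h library and rose from 0.596, 0.571 and 0.4301 CPM to 7.15, 5.06 and 7.05 CPM (log2 change 3.66, SE 0.173, adjusted p = 0.000594). TICAM1, the adaptor of the interferon branch (chromosome 7, 20547955 to 20550264), rose from 8.699, 7.86 and 8.99 CPM to 21.5, 15.8 and 18.2 CPM (log2 change 1.19, SE 0.0787, adjusted p = 0.00145). TLR2, a receptor for bacterial lipoproteins below the filter, had 82 reads at 0 h and 161 at 2 h (0.195, 0.352 and 0.197 CPM and 0.369, 0.441 and 0.746 CPM), and was named because its times did not overlap.

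Of 31 listed interferon genes, 30 were in the files and 19 were tested. One was called higher (5.3%, against 1.69% of all genes) and none lower, and at any fold 15.8% were higher and 10.5% lower at an adjusted p under 0.05, against 12.5% and 10.6% of all genes. The median log2 change was -0.09. The called gene was IRF1, a transcription factor that is itself an early NF-kB target (chromosome 7, 23235653 to 23243672), which rose from 11.9, 7.92 and 9.703 CPM to 82.6, 48.8 and 61.4 CPM (log2 change 2.78, SE 0.0494, adjusted p = 5.37e-05 in edgeR). The IRF1 window overlaps LOC100848038, which was called with it, so the reads cannot be assigned to either with certainty. IRF7, an inducer of type I interferons, was higher by just under the fold minimum (log2 change 0.99, SE 0.093, adjusted p = 0.00325). MX1, an antiviral GTPase, had means of 5.28 ± 3.07 CPM and 5.53 ± 3.51 CPM (SD; log2 change 0.09, SE 0.0807, adjusted p = 0.455). The ligand gene IFNB1 was below the filter at 0.0389, 0.274 and 0.0448 CPM and 0.155, 0.317 and 0.0233 CPM, as was ISG15, a ubiquitin-like modifier, at 0.156, 0.04696 and 0.0627 CPM and 0.544, 0.307 and 0.171 CPM. Of the 11 members below the filter, 6 had every 2 h library above every 0 h library and 1 every library below, against 5.2% and 4.7% of all such windows with reads. ISG15, CMPK2, OAS2 and ISG20 were named for this. The last 3 had pooled ratios of 2.14 (1.72 to 2.67), 2.74 (1.71 to 4.5) and 1.53 (1.09 to 2.17) at 95% for counting error, and the OAS2 window overlaps OAS1.

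Of 17 tested targets of BMP and TGF-beta signalling 9 (52.9%, against 1.69% of all genes) were called higher and none lower, with a median log2 change of 1.13. ID1, an inhibitor of DNA binding that is a direct BMP target (chromosome 13, 61726125 to 61727284), measured 2.58, 1.35 and 2.303 CPM at 0 h and 125, 50.5 and 121 CPM at 2 h. Animal 2 was lowest at both times, and the log2 change was 5.60 (SE 0.0865, adjusted p = 5.37e-05 in edgeR). SMAD7, the inhibitory SMAD (chromosome 24, 49071140 to 49098714), rose from 4.95, 6.004 and 3.98 CPM to 67.6, 48.4 and 67.9 CPM (log2 change 3.69, SE 0.195, adjusted p = 0.000851). HEY1, a repressor downstream of Notch and BMP, rose from 0.518, 1.57 and 0.296 CPM to 4.83, 8.84 and 4.68 CPM, highest in animal 2 at both times (log2 change 3.20, SE 0.266, adjusted p = 0.00248). SKIL, a repressor of SMAD activity, rose from 13.2, 21.8 and 12.8 CPM to 69.9, 66.7 and 74.7 CPM (log2 change 2.26, SE 0.172, adjusted p = 0.00207). SMAD6, ID2, TGIF1, HES1 and PMEPA1 were called with log2 changes between 1.13 and 1.59. Several of the called members, among them SMAD6, SMAD7, SKIL and TGIF1, are known as repressors of the pathway.

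The targets of SRF and YAP, factors that answer to serum and to cell tension, gave 0 called rises and 1 called fall among 16 tested, counts too small to set against the 1.69% and 0.809% of all genes. At any fold 10 (62.5%) were higher at an adjusted p under 0.05, against 12.5% of all genes (median log2 change 0.22). CTGF, the largest of these, had means of 2406 ± 696 CPM and 3744 ± 493 CPM (SD; log2 change 0.75, SE 0.0818, adjusted p = 0.00477 in edgeR). The called fall was JUB, a LIM protein that regulates YAP, from 7.86, 13.1 and 7.45 CPM to 3.301, 2.49 and 2.898 CPM (log2 change -1.60, SE 0.221, adjusted p = 0.00892). Of 18 heat shock and unfolded protein genes 2 (11.1%) were called higher and 1 (5.6%) lower, against 1.69% and 0.809% of all genes, and at any fold 33.3% were higher and 33.3% lower, against 12.5% and 10.6%. Those called higher were HMOX1, the heme-degrading enzyme (54.9, 32.6 and 42.2 CPM to 143, 80.04 and 118 CPM; log2 change 1.47, SE 0.033, adjusted p = 7.51e-05), and HSPA1A, an inducible chaperone with a near-identical copy (70.7, 53.05 and 70.1 CPM to 168, 96.8 and 167 CPM; log2 change 1.21, SE 0.0677, adjusted p = 0.000976). CHAC1 was the one called lower, and TRIB3, DDIT4, DDIT3 and ATF4 were lower at an adjusted p under 0.05, with log2 changes of -0.93, -0.81, -0.59 and -0.43.

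Of 22 tested genes of the proliferation list 0 were called, where 1.69% and 0.809% of all genes were called higher and lower. At any fold 7 (31.8%) were lower at an adjusted p under 0.05, against 10.6% of all genes (median log2 change -0.26), among them the proliferation marker MKI67 (log2 change -0.33, SE 0.0343, adjusted p = 0.00416 in edgeR) and the topoisomerase TOP2A (log2 change -0.42, SE 0.0509, adjusted p = 0.00632). CCND1, a cyclin induced by growth factors, was higher short of the fold minimum (log2 change 0.31, SE 0.0536, adjusted p = 0.0153). MCM6, of the replication helicase, measured 81.2, 67.5 and 76.8 CPM and 68.8, 62.7 and 74.2 CPM (log2 change -0.05, SE 0.0467, adjusted p = 0.512). In the circadian clock list 2 of 14 tested genes (14.3%, against 0.809% of all genes) were called lower and none higher, while at any fold 21.4% were higher and 21.4% lower, against 12.5% and 10.6% of all genes. The called genes were NR1D1, a nuclear receptor that represses clock genes, in a window overlapping THRA (13.4, 8.65 and 13.6 CPM to 5.03, 5.601 and 5.37 CPM; log2 change -1.04, SE 0.185, adjusted p = 0.0173), and C3H1orf51 (2.63, 2.12 and 3.08 CPM to 0.6603, 1.03 and 0.847 CPM; log2 change -1.52, SE 0.242, adjusted p = 0.0128). NR1D1 was lost without animal 1 or animal 3, and C3H1orf51 without animal 3. BHLHE41, a clock repressor below the filter, went from 0.493, 0.462 and 0.376 CPM to 1.67, 0.844 and 1.82 CPM. None of the 16 fibroblast markers was called (median log2 change 0.05). The collagen gene COL1A2 measured 25762, 35249.8 and 26522 CPM and 25849, 34944 and 28839 CPM. Of 7 tested smooth muscle and pericyte markers 4 (57.1%) were higher at any fold, against 12.5% of all genes, and 2 (28.6%, against 1.69%) were called higher, CSPG4, a pericyte proteoglycan (52.3, 57.95 and 60.5 CPM to 138, 94.5 and 140.4 CPM; log2 change 1.19, SE 0.119, adjusted p = 0.00385), and DES, the muscle intermediate filament protein (0.4797, 2.02 and 0.242 CPM to 1.301, 2.71 and 0.901 CPM; log2 change 1.23, SE 0.299, adjusted p = 0.0401). The DES times overlapped, and its call was lost without animal 1 or animal 3. None of the 12 macrophage and 12 keratinocyte markers reached the filter. Among the macrophage markers 2 lay wholly higher at 2 h and 1 wholly lower, and among the keratinocyte markers 1 lay wholly higher and 0 lower, where 5.2% and 4.7% of the 9378 gene windows below the filter with reads did so. CSF1R, a macrophage growth factor receptor, had 27 reads at 0 h and 40 at 2 h (0.0778, 0.102 and 0.0717 CPM and 0.194, 0.125 and 0.132 CPM), and CD163, a macrophage scavenger receptor, had 109 and 199 (0.181, 0.321 and 0.484 CPM and 0.835, 0.547 and 0.769 CPM). FCER1G, an Fc receptor chain, went down from 303 reads to 108 (0.596, 0.939 and 1.23 CPM and 0.369, 0.249 and 0.489 CPM). TP63, a keratinocyte transcription factor, had 167 and 326 reads (0.869, 0.399 and 0.439 CPM and 1.17, 0.873 and 1.36 CPM). Their part in the results was not tested.

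**Figure D2:**
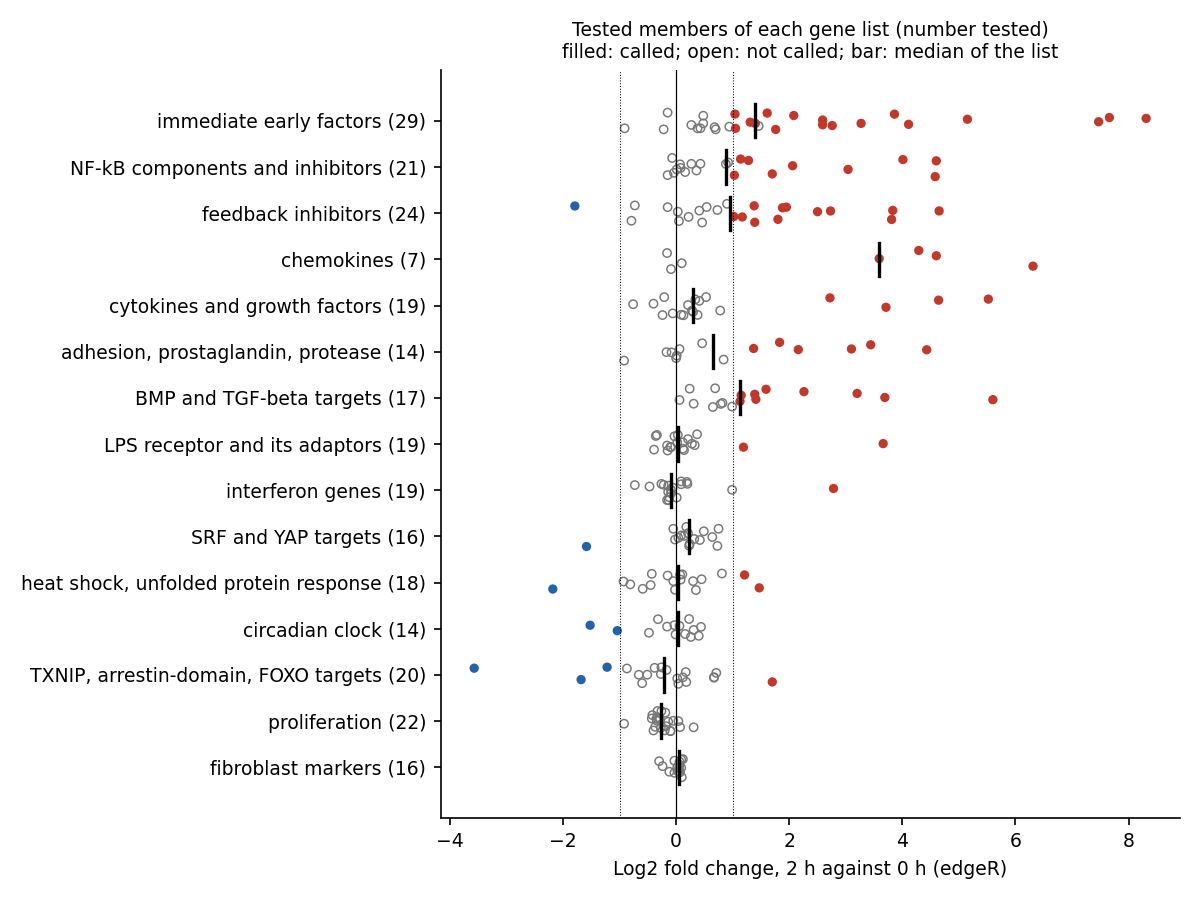
Each circle is 1 tested gene, placed by its log2 fold change at 2 h from edgeR on the horizontal axis and by its list on the vertical axis, with the number tested in brackets. Filled circles are called genes, red for higher and blue for lower, open circles are not called, and the black bar is the median of the list. The medians of the early gene, BMP and TGF-beta target and chemokine lists lie at 1.40, 1.13 and 3.59, while those of the LPS receptor, interferon, proliferation and fibroblast lists lie between -0.26 and 0.05.

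Several of the remaining large rises belong to no list. RRAD, a small GTPase of muscle and other tissues (chromosome 18, 34746055 to 34749250), was measured by 2 reads at 0 h and rose to 2.49, 2.196 and 1.51 CPM at 2 h (log2 change 8.16, SE 0.374, adjusted p = 0.000541 in edgeR). The pooled CPM ratio was 307, with a counting interval from 84.5 to 2540. RND1, a small GTPase that loosens the actin skeleton (chromosome 5, 31090625 to 31097558), rose from 0.117, 0.485 and 0.143 CPM to 16., 7.25 and 11.4 CPM (log2 change 5.42, SE 0.522, adjusted p = 0.00347). Animal 2 had the highest RND1 baseline and the smallest rise. XIRP1, an actin-binding protein best known from muscle (chromosome 22, 12549676 to 12558895), rose from 0.207, 0.344 and 0.143 CPM to 7.496, 8.73 and 8.22 CPM (log2 change 5.22, SE 0.203, adjusted p = 0.000353). All 3 genes were under 1 CPM in every 0 h library, so the filter left no room for overlap between the times.

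The largest fall was that of LOC100848155 (log2 change -3.59, adjusted p = 0.0022 in edgeR), whose window contains that of TXNIP but was given fewer reads (9.98, 12.1 and 11.6 CPM at 0 h and 0.563, 1.52 and 0.637 CPM at 2 h), and TXNIP came next. How reads of the shared stretch were divided is not given in the sources used here. TXNIP, an inhibitor of thioredoxin and of glucose uptake (chromosome 3, 21489097 to 21493258), measured 85.6, 93.4 and 92.7 CPM at 0 h and 5.88, 11.3 and 5.37 CPM at 2 h. The 0 h libraries were close to each other, animal 2 kept the highest level at 2 h, and the log2 change was -3.57 (SE 0.244, adjusted p = 0.00157 in edgeR). The related arrestin-domain genes, which guide membrane receptors and transporters to degradation, moved in both directions. ARRDC3 fell from 18.2, 13.2 and 17.8 CPM to 4.35, 4.51 and 5.44 CPM (log2 change -1.68, SE 0.117, adjusted p = 0.0017). ARRDC4 fell from 12.4, 13.1 and 11.7 CPM to 4.82, 5.62 and 4.66 CPM (log2 change -1.22, SE 0.0739, adjusted p = 0.00117), while ARRDC2 rose from 10.2, 7.81 and 9.26 CPM to 35.8, 21.8 and 27.5 CPM (log2 change 1.70, SE 0.0704, adjusted p = 0.000444). In the list of these genes with targets of FOXO factors, 20 were tested, 3 (15.0%) were called lower and 1 (5.0%) higher, against 0.809% and 1.69% of all genes, 7 (35%) were lower and 4 (20%) higher at any fold, against 10.6% and 12.5%, and the median log2 change was -0.21. CDKN1B, a cell cycle inhibitor, and TSC22D3, a glucocorticoid-induced gene, were lower short of the fold minimum (-0.66, adjusted p = 0.0022, and -0.87, adjusted p = 0.00173).

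Potassium channel genes held the next places. KCNE4, an accessory subunit of voltage-gated channels (chromosome 2, 111987824 to 111991013), measured 16.98, 32.6 and 11.3 CPM at 0 h and 0.816, 6.15 and 1.18 CPM at 2 h. Animal 2 was highest at both times, and the times did not overlap (log2 change -3.05, SE 0.347, adjusted p = 0.00541 in edgeR). KCNJ2, an inward rectifier (chromosome 19, 61185604 to 61195892), fell from 6.75, 3.11 and 5.12 CPM to 0.563, 1.04 and 0.451 CPM (log2 change -2.71, SE 0.453, adjusted p = 0.0146). Its fall was smallest in animal 2, and its call was lost without animal 1 or animal 3, with an adjusted p from 1.56e-10 to 0.313 over the alternatives. SGK1, a kinase that regulates ion transport downstream of growth factors (chromosome 9, 73305312 to 73310869), fell from 83.8, 154 and 102 CPM to 19.8, 39.02 and 24.4 CPM by nearly the same ratio in each animal (log2 ratios -1.99, -1.83 and -2.04; log2 change -1.95, SE 0.0507, adjusted p = 9.69e-05). CHAC1, an enzyme that degrades glutathione (chromosome 10, 36598394 to 36600765), fell from 27.7, 30.2 and 26.2 CPM to 3.79, 9.76 and 4.89 CPM (log2 change -2.18, SE 0.247, adjusted p = 0.00528). LRIG3, a membrane protein that modulates receptor kinases (chromosome 5, 54884394 to 54936361), fell from 78.8, 68.8 and 75.3 CPM to 16.1, 25.7 and 19.02 CPM (log2 change -1.81, SE 0.18, adjusted p = 0.00374). In these 3 genes, too, every 2 h library was below every 0 h library.

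Zinc finger genes made up a large part of the falls. This group was formed by symbol (ZNF, ZFP, ZSCAN or ZKSCAN with a number, without the ZFP36 family) after the values had been seen, so its counts are a description. Many of these genes encode nuclear repressor proteins with KRAB domains. Of 269 tested, 35 (13%) were called lower and 1 higher, against 0.809% and 1.69% of all genes tested, and the median log2 change was -0.37. Without a fold minimum, 131 (48.7%) were lower at an adjusted p under 0.05 and 9 (3.3%) were higher, against 10.6% and 12.5% of all genes. Their falls were moderate. ZNF319, the largest (chromosome 18, 25984646 to 25986621), fell from 2.13, 1.97 and 1.97 CPM to 0.311, 0.527 and 0.622 CPM (log2 change -1.94, SE 0.243, adjusted p = 0.00678 in edgeR). ZSCAN20 fell from 2.66, 3.05 and 3.11 CPM to 1.09, 0.863 and 0.785 CPM (log2 change -1.64, SE 0.183, adjusted p = 0.00511), ZNF397 from 3.89, 2.802 and 4.43 CPM to 1.495, 0.633 and 1.43 CPM (log2 change -1.63, SE 0.167, adjusted p = 0.00404), and ZFP62 from 2.63, 2.07 and 2.21 CPM to 0.6797, 0.719 and 0.692 CPM (log2 change -1.62, SE 0.164, adjusted p = 0.00398). None of these 4 overlapped between the times. ZNF319 and ZFP62 were under 1 CPM in every 2 h library, so the filter left them no room to overlap. Levels of the 4 genes were a few CPM at most, and reads of closely related zinc finger genes may be shared between copies. The count of called falls ran from 5 to 50 over the alternatives, lowest when libraries of both ages shared 1 estimate of the spread and highest without the filter.

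**Figure D3:**
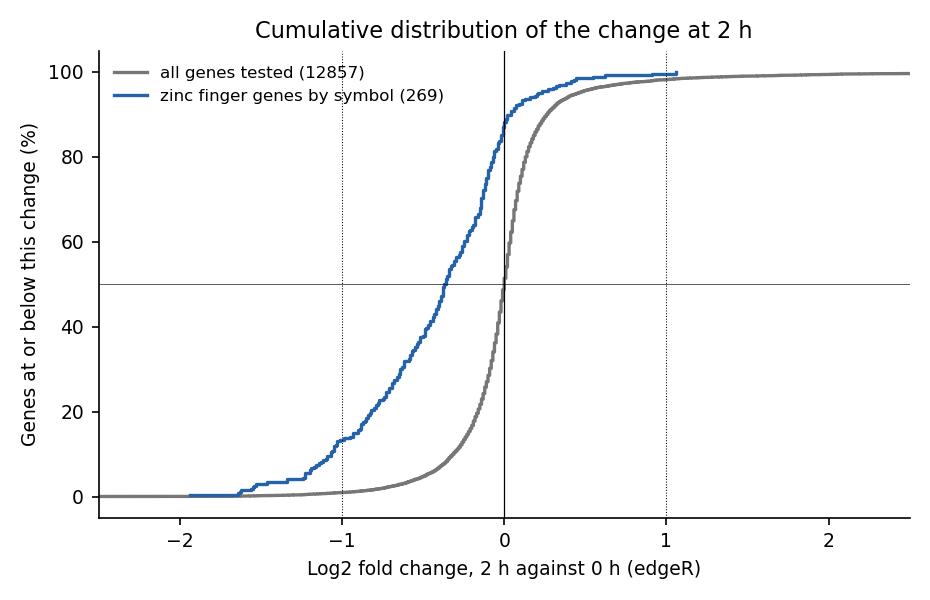
The lines give the percentage of genes (vertical axis) whose log2 fold change at 2 h from edgeR is at or below the value on the horizontal axis, for all 12857 genes tested (grey) and for the 269 zinc finger genes (blue). The blue line lies to the left of the grey line, with medians of -0.37 and 0.00. Changes beyond 2.5 in either direction are not shown.

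The 8 h libraries of the same cultures show which early changes persisted. The test of 8 h against 2 h used the same model and shares the 2 h libraries with the comparison above, so the values are given side by side and the tests are not independent. Of 12875 genes tested there, 252 were higher at 8 h than at 2 h (1.96%) and 203 lower (1.58%). Of the 10 largest rises, 8 were called lower at 8 h than at 2 h, IL8 was called higher, and RND1, at 6.88, 6.14 and 5.799 CPM, was not called (log2 change -0.90, SE 0.196, adjusted p = 0.0156 in edgeR). ARC stood at 0.0181, 0.0147 and 0.0706 CPM at 8 h (log2 change -8.01, SE 0.23, adjusted p = 0.000102 for 8 h against 2 h in edgeR), and FOSB at 0.908, 1.13 and 0.585 CPM (log2 change -6.44, SE 0.199, adjusted p = 0.000103). EGR3 stood at 0.327, 0.133 and 0.333 CPM (log2 change -5.90, SE 0.143, adjusted p = 6.51e-05) and NR4A1 at 7.01, 5.43 and 4.56 CPM (log2 change -4.75, SE 0.276, adjusted p = 0.000541). The 8 h levels of ARC and FOSB overlapped those of 0 h. In printed CPM, every 8 h library of EGR3 and NR4A1 was above every 0 h library, by little at the closest. Means at 0 h and 8 h were 0.0951 and 0.264 CPM for EGR3 and 4.25 and 5.67 CPM for NR4A1. Among inhibitors, NFKBIA came part of the way back, at 50.9, 46.8 and 51.2 CPM (log2 change -1.50, SE 0.0763, adjusted p = 0.000373), as did TNFAIP3 at 10.2, 8.11 and 9.35 CPM (log2 change -1.46, SE 0.114, adjusted p = 0.000955) and ID1 at 27.98, 15.7 and 23.8 CPM (log2 change -2.14, SE 0.133, adjusted p = 0.000623). DUSP5, at 1.41, 1.27 and 0.232 CPM, overlapped its 0 h levels (log2 change -4.00, SE 0.383, adjusted p = 0.00143 in edgeR). LIF fell to 1.92, 3.28 and 1.97 CPM (log2 change -3.52, SE 0.268, adjusted p = 0.000931) and TNF, untested, to 0.0272, 0.0147 and 0.0202 CPM.

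Among the chemokines, IL8 rose further to 39.5, 32.1 and 37.4 CPM (log2 change 1.62, SE 0.188, adjusted p = 0.00228 for 8 h against 2 h in edgeR) and CCL5 to 28.8, 17.6 and 22.7 CPM (log2 change 1.38, SE 0.126, adjusted p = 0.0013). CXCL2, at 85.7, 62.5 and 98.1 CPM, and CCL2, at 179, 58.9 and 194 CPM, were not called between 2 h and 8 h (log2 change 0.06, adjusted p = 0.802, and 0.53, adjusted p = 0.0676). CFB had the largest later rise among genes called higher at 2 h, to 68.1, 16.6 and 42.6 CPM (log2 change 3.75, SE 0.143, adjusted p = 0.000204). IL6 was called higher again, at 10.9, 12.9 and 6.67 CPM (log2 change 1.03, SE 0.21, adjusted p = 0.0127), a call that was lost without animal 2 or animal 3. Genes that were still low at 2 h appeared by 8 h: SAA3 reached 1.23, 1.001 and 0.676 CPM, ISG15 2.496, 2.47 and 1.38 CPM (log2 change 2.66, SE 0.246, adjusted p = 0.00132) and VCAM1 1.46, 2.49 and 2.11 CPM (log2 change 2.69, SE 0.194, adjusted p = 0.000838). Of the 17 named falls 15 were called higher at 8 h than at 2 h. C3H1orf51, at 1.54, 1.04 and 1.63 CPM, was not called and stayed below every 0 h library (log2 change 0.65, SE 0.26, adjusted p = 0.0897), and NR1D1, at 11.4, 6.12 and 11.9 CPM, was short of the fold minimum (log2 change 0.76, SE 0.21, adjusted p = 0.0332). TXNIP stood at 131, 109.6 and 164 CPM (log2 change 4.14, SE 0.332, adjusted p = 0.000992), above each animal's own 0 h level, and so did ARRDC3 at 24.6, 16.1 and 29.1 CPM (log2 change 2.18, SE 0.131, adjusted p = 0.000592) and CHAC1 at 40.4, 39.9 and 39.9 CPM (log2 change 2.70, SE 0.245, adjusted p = 0.00128). KCNE4 stood at 17.96, 23.8 and 13.8 CPM (log2 change 3.01, SE 0.425, adjusted p = 0.00401) and ZNF319 at 2.13, 1.47 and 2.04 CPM (log2 change 1.85, SE 0.267, adjusted p = 0.00428).

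**Figure D4:**
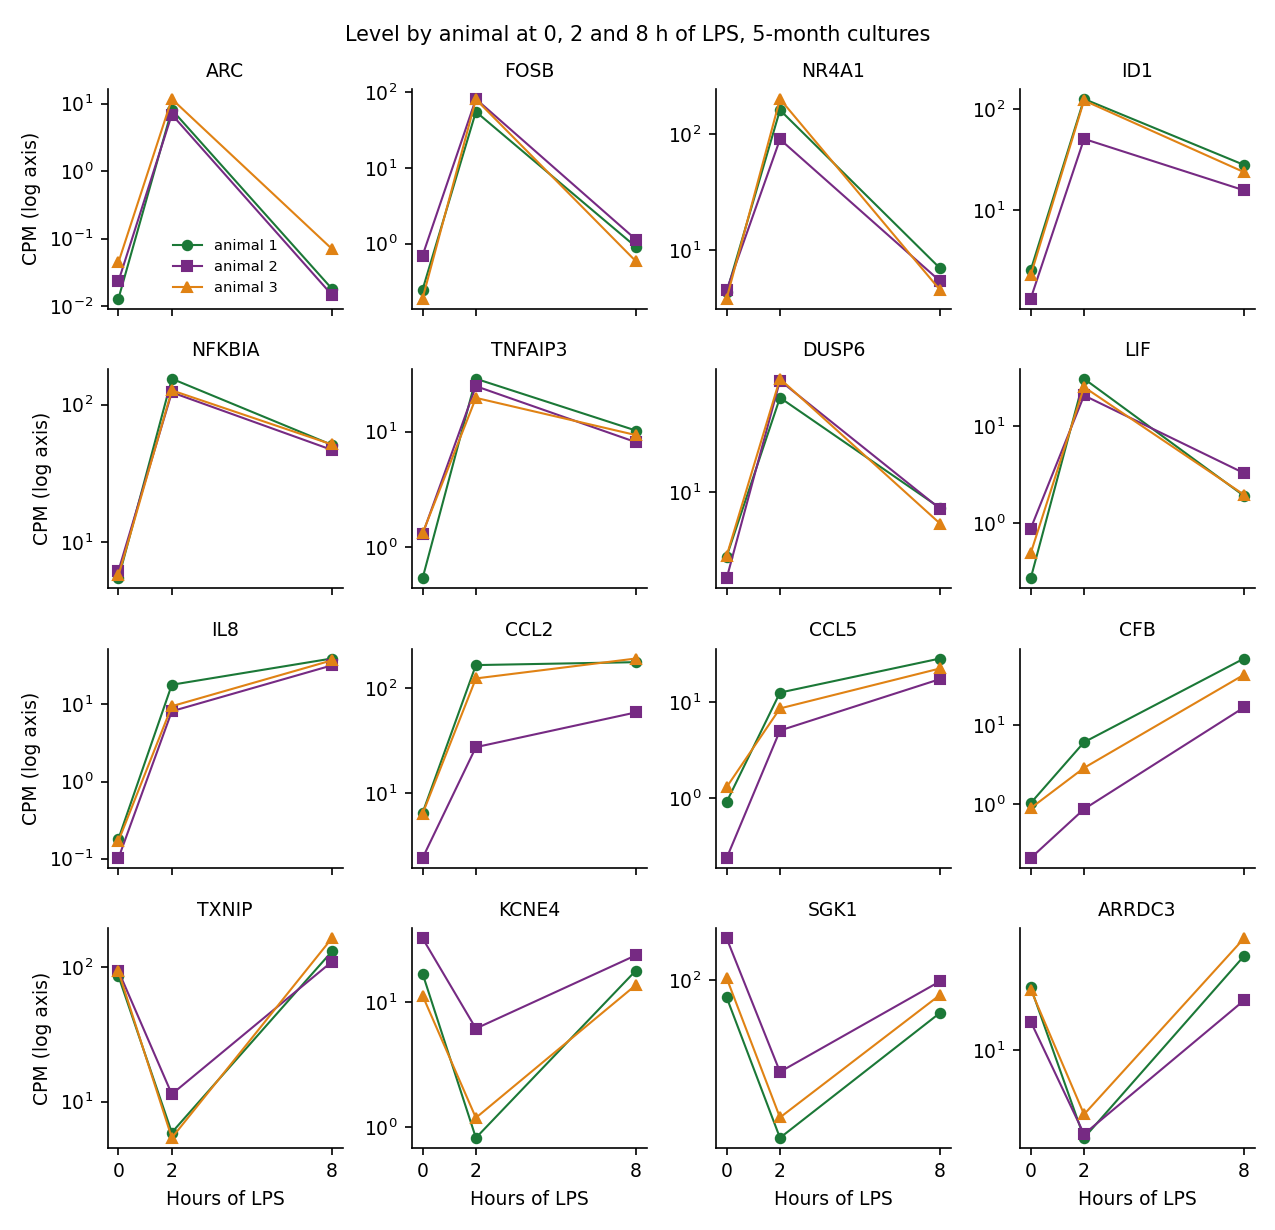
Each panel is 1 gene, with hours of LPS on the horizontal axis and CPM on the vertical axis (log axis, its range set for each gene), and 1 line for each of the 3 animals. The top row and TNFAIP3, NFKBIA, DUSP6 and LIF peak at 2 h, IL8, CCL5 and CFB are highest at 8 h in all 3 animals, and the bottom row is lowest at 2 h.

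Cultures of the same 3 animals collected at 16 months, in separate libraries, gave the same direction for most of these genes. Of the 217 rises, 98.2%, 98.6% and 83.9% were also higher at 2 h in the 16-month cultures of animals 1, 2 and 3, against 49.9%, 49.2% and 48.0% of all genes tested. Of the 104 falls, 100.0%, 100.0% and 92.3% were also lower, against 50.1%, 50.8% and 52.0%. The 2 h library of animal 3 at 16 months stood apart from its group (SD of the log2 difference to the other replicates 1.35 and 1.36, against 0.168 to 0.428 for all other pairs within a group) and had 1.321% of its gene counts on mitochondrial genes, against 2.14% to 2.628% in the other 17 libraries. With animals 1 and 2 alone, 97.2% of the rises and 100.0% of the falls kept their direction in both cultures, against 38.3% and 39.1% of all genes. IL8 had log2 ratios of 6.08, 5.51 and 5.16 at 5 months and 8.63, 8.22 and 4.98 at 16 months, and NFKBIA of 4.87, 4.43 and 4.46 and 6.12, 5.42 and 5.78. TXNIP had ratios of -3.76, -2.89 and -4.06 and -4.49, -3.82 and -4.96. The NFKBIA values of the ages did not overlap. IL8 ratios were larger at 16 months in animals 1 and 2 and smaller in animal 3, and without the 16-month culture of animal 3 the ages did not overlap. TXNIP ratios overlapped between the ages but were more negative at 16 months in each of the 3 animals.

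**Figure D5:**
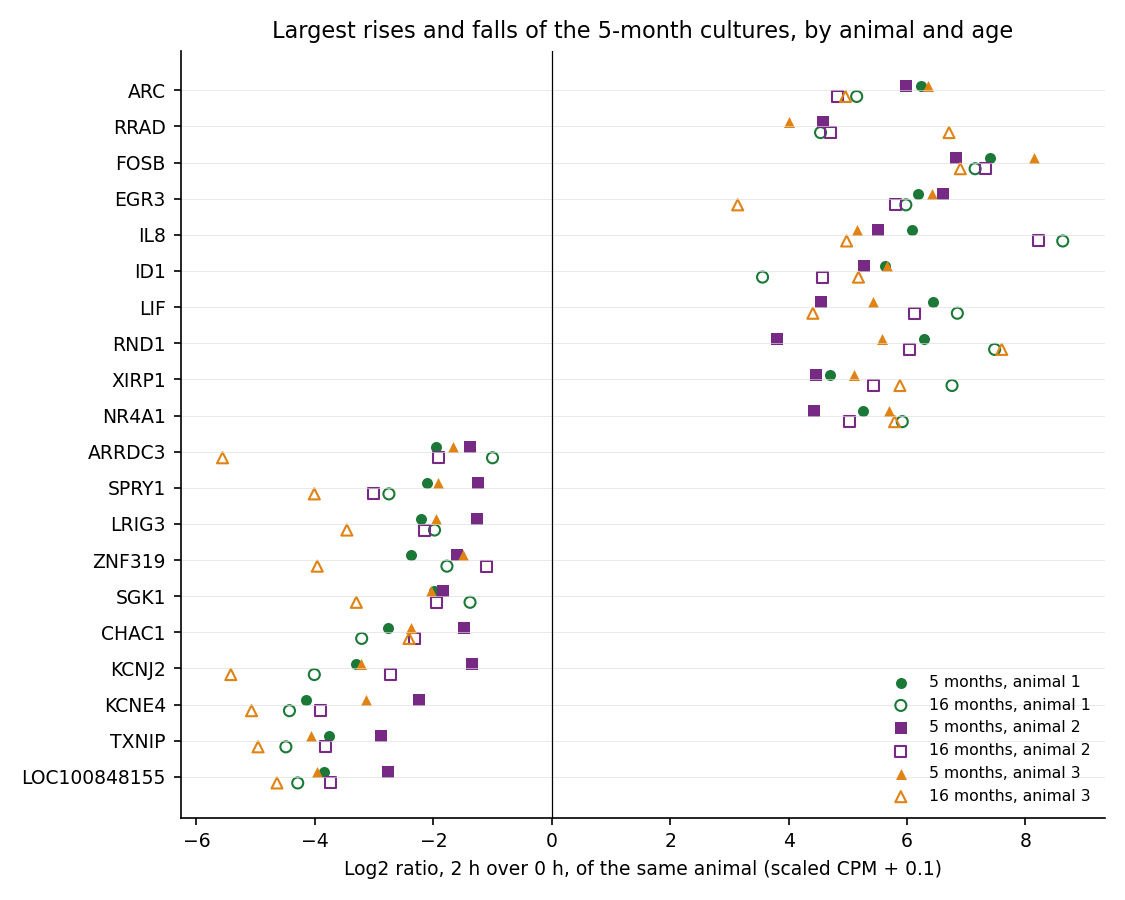
The 10 largest rises and 10 largest falls of the 5-month cultures are on the vertical axis, and the horizontal axis is the log2 ratio of 2 h to 0 h within an animal, from CPM scaled by TMM factors with 0.1 added. Filled symbols are 5-month and open symbols 16-month cultures of the same 3 animals. All points of the rises lie above 0 and all points of the falls below 0 at both ages.

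Whether the 2 h response differed between the ages was tested by an age-by-time interaction term in a fit of 12 libraries, with the culture as block. No gene was called among 12859 tested with edgeR (0%), where 168 had an unadjusted p under 0.05 and the smallest adjusted p was 0.655. A fit that also paired the responses of the ages by animal, added after seeing the data, called 0 too (124 at an unadjusted p under 0.05, smallest adjusted p 0.727). The likelihood-ratio test of edgeR called 7 genes, all with a larger log2 change at 16 months and 6 of them among the 217 rises. DESeq2 called 12 larger and 2 smaller, of which 10 and 1 were among the rises, and limma-voom called 0. CXCL2, IRF1, NFKBID, CFB and CXCR4, a chemokine receptor, were called by both, with differences of the log2 changes of 1.68, 1.56, 1.99, 2.56 and 2.10 (adjusted p = 0.016, 0.0127, 0.00802, 0.00109 and 0.00765 in the likelihood-ratio test of edgeR). DESeq2 also called CCL5 (2.92, adjusted p = 0.0275), ZC3H12A (1.28, adjusted p = 0.0123) and NFKBIA (1.21, adjusted p = 0.0445) with larger changes at 16 months.

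The 16-month culture of animal 3, whose 2 h library stood apart, changed these counts in edgeR. Without it the fit paired by animal, in which 2 animals have both ages, called 19 genes with a larger change at 16 months and 2 with a smaller one, 11 and 2 of them among the 217 rises. With 1 age left, animal 3 did not inform the difference in this fit, and hardly any residual degrees of freedom remained. The adjusted p-values of this fit therefore rest mostly on the spread shared across genes. The 19 with a larger change included TNFAIP3 (difference 2.78, adjusted p = 0.0154), PTGS2 (2.60, adjusted p = 0.00613), BIRC3 (1.54, adjusted p = 0.0156), NFKBIA (1.12, adjusted p = 0.0448) and CCL2 (1.01, adjusted p = 0.0317). The smallest adjusted p (0.0032) belonged to LRP1B (difference 4.51) and SH3GLB1 (2.71), and ATP5E (1.77) and C19H17orf61 (1.78) were also called. LRP1B measured 17.1, 26.4 and 21.3 CPM at 0 h and 1.53, 13.4 and 22.8 CPM at 2 h at 5 months. Its 2 h level thus differed severalfold between cultures. The 2 with a smaller change were DUSP6 (-1.31, adjusted p = 0.0217) and MIDN (-1.02, adjusted p = 0.0217). With the culture as block alone 3 genes were called without it. All genes of this comparison are named after their values were seen. MIDN, a nucleolar protein and a called rise of the 5-month cultures, rose from 16.3, 14.8 and 17.2 CPM to 72.1, 62.2 and 86.8 CPM at 5 months and from 17.8, 17.9 and 18.2 CPM to 36.2, 41.6 and 21.5 CPM at 16 months (difference of the log2 changes -1.06, SE 0.0632, adjusted p = 0.012 without the 16-month culture of animal 3). SEP15, a selenoprotein, and SH3GLB1, a membrane-bending protein, were not called at 5 months (adjusted p = 0.193 and 0.0201, with log2 changes of 0.08 and 0.25). SH3GLB1 measured 8.37, 61.9 and 61.2 CPM at 0 h and 9.83, 69.7 and 66.4 CPM at 2 h in the 5-month cultures, and went from 9.66, 9.70 and 65.4 CPM to 73.6, 75.5 and 26.0 CPM in the 16-month cultures. SEP15 measured 42.0, 137 and 129 CPM at 0 h and 39.7, 138 and 134 CPM at 2 h at 5 months, and went from 43.2, 55.5 and 38.5 CPM to 124, 134 and 97.6 CPM at 16 months. At 5 months the levels of both genes differed severalfold between cultures at the same time, and whether this came from the counting or from the libraries was not tested. The estimate of the spread was larger over the 12 libraries (common biological coefficient of variation 0.298) than over the 6 libraries of the 5-month cultures (0.087).

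Called genes had shorter windows, a feature that the call rule did not use, with a median of 10626 bases for the rises (quartiles 4381 and 25855) and 7326 for the falls (3862 and 14493), against 20250 for all genes tested (7099 and 53586). Windows under 5000 bases made up 27.6% of the rises, 32.7% of the falls and 19.3% of all genes. Baseline levels enter the filter and the fold, so they are a description only, with a median at 0 h of 5.62 CPM for the rises and 3.95 CPM for the falls, against 18.3 CPM over all genes. The share of windows overlapping another gene window was 12.4% of the rises and 10.6% of the falls, and 17.5% of all genes tested. Changes of called genes were smallest in animal 2. The median log2 ratio of the rises was 1.77, 1.37 and 1.65 in animals 1, 2 and 3, and that of the falls was -1.41, -1.04 and -1.27. Animal 2 had the smallest change of the 3 for 154 rises (71%) and 69 falls (66.3%), against 45.4% of all genes tested. Whether this follows from the animal, the culture or the libraries cannot be told apart.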

How the data were processed

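RNA from bovine dermal fibroblasts was poly-A enriched, made into TruSeq libraries and sequenced by the authors. They filtered reads on quality, aligned them to the UMD 3.1 genome with NextGENe 2.3.4 and deposited raw read counts for 59846 windows per library, 27550 of them gene windows. Counts exceed matched reads (1.609 to 1.673 per matched read), so some reads were counted more than once, and 3905 gene windows (14.2%) overlap another. Of 477 pairs with 1 gene window inside another and at least 1000 reads in the inner, the outer held fewer reads in 151, so a read over both is not always counted in both. How such reads were assigned and whether strand was used are not given in the sources used here. Columns of coverage in the same files were not used.

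From the deposited counts, the 12857 windows left by a filter of 1 CPM in 3 of 6 libraries entered edgeR 4.0.16 under R 4.3.3 (TMM factors, quasi-likelihood F test, two-sided, animal as block). Calls needed a Benjamini-Hochberg adjusted p under 0.05 and a fold change of 2. SE is the log2 change over the square root of F. The age by time interaction was fitted over 12 libraries with the culture as block. Ratios within an animal and the overlap of groups used TMM-scaled CPM, with 0.1 CPM added in ratios. Pooled ratios of genes with few reads carry exact (Clopper-Pearson) 95% intervals, and the floor was 3 reads summed over the group, both for counting error alone. Animal numbers in the labels pair the libraries, and deviations of 0 h and 2 h libraries from their group means correlated at 0.532, 0.741 and 0.588 across genes for the same animal, against -0.582 to 0.296 otherwise. Tested on simulated data with 196 genes changed by a log2 of 2 among 12754, the first comparison recovered 99.5%, with 3 false calls, while the interaction recovered 26% of 200 such genes. The changed genes were drawn above a minimum of reads, and all animals had the same baseline. Recovery of smaller changes was not simulated, and the called falls had a median log2 size of 1.23.

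The comparison and the gene lists were chosen with earlier results of these data known. Genes were named by a rule: the 10 largest rises and falls with the same sign in 3 of 3 animals and a mean above 1 CPM, up to 4 called members of each list (or up to 2 not called, by level), IL8, TNF, TLR4, CD14, CCL20 and SAA3, the 3 largest rises and falls of the later comparison among genes called at 2 h, and list members below the filter with at least 10 reads in each 2 h library and no overlap. Other genes are named to give the rest of a list. Alternatives were other scaling factors (RLE, upper quartile, library size), other filters, the likelihood-ratio test, DESeq2 1.42.0, limma-voom (limma 3.58.1), a robust prior, no fold minimum, no block, each animal left out, other sets of libraries, pairing of the ages by animal, and windows without overlap. Fibroblasts of other ages and times entered only where stated. No genome sequence or annotation of the UMD 3.1 build was used, and gene names are those of the files. Some called genes are not reported here.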

Additional observations from a re-analysis of the deposited data

Results flagged for a closer look

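Reads between genes were not part of the comparisons above. Of 32296 windows between genes, 6673 passed the same filter, and with the same edgeR test and call rule 135 (2.02%) were higher at 2 h than at 0 h and 48 (0.719%) lower. They are given here because the comparisons above did not use these windows and their level differs from the 0 h libraries. Of the 183 called windows, 12 overlap a gene window in part, so their reads may also be counted there. Of the 135 higher windows, 79 border a gene that was called higher, as do 161 of all 6673 tested, and 62 of the 79 lie downstream of it. Of the 48 lower windows, 18 border a gene called lower, as do 63 of all tested, and these 18 lie downstream. How many of the 161 and 63 lie downstream was not counted, so the downstream counts have no background. The largest change lay between BIN3 and EGR3 on chromosome 8, 70480014 to 70502498 (build UMD 3.1), with 0.104, 0.0391 and 0.0627 CPM at 0 h and 10.8, 9.70 and 14.5 CPM at 2 h (log2 change 7.55, adjusted p = 0.000978). It passed the filter only through its 2 h libraries. A window on chromosome 6, 90709881 to 90842884, which overlaps the CXCL2 window, went from 4.93, 1.88 and 6.24 CPM to 193, 87.4 and 120.1 CPM (log2 change 5.08, adjusted p = 0.00375). The largest fall, on chromosome 2, 122257546 to 122290756, between KHDRBS1 and LOC788564, went from 20.8, 13.04 and 17.8 CPM to 1.94, 1.96 and 2.63 CPM (log2 change -2.87, adjusted p = 0.00336). Whether such windows hold unannotated exons, transcripts running past an annotated gene end or separate genes was not tested.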

How the results depend on the processing

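Counts of calls for 2 h against 0 h stayed within 1.5 times of 217 rises and 104 falls under RLE and upper-quartile factors, library size only, the likelihood-ratio test, DESeq2, limma-voom, a robust prior, 9 libraries and without overlapping windows. They moved further with no filter (160 lower), with 1 CPM in every library (58 lower), with no fold minimum (1608 higher, 1360 lower) and with 12 libraries of both ages and a shared spread (83 higher, 10 lower). In that fit 24 of 55 called named genes lost their call (IL8, TNFAIP3, DUSP6, RGS16, CCL5, IL6, IL1A, HBEGF, PTGS2, HEY1, SKIL, CSPG4, KCNE4, KCNJ2, CHAC1, SGK1, ZNF319, LRIG3, SPRY1, ARRDC3, ARRDC4, JUB, C3H1orf51 and NR1D1). Leaving out 1 animal gave 184 to 278 rises and 61 to 146 falls. An alternative chosen after seeing the data left the 16-month replicate 3 out of the 12 libraries and gave 215 and 109, with 0 of the 55 lost, and another summed animals 1 and 3, which gave 185 and 88. Library size only lowered the share of rises among calls from 67.6% to 58.9% and moved the median of all genes to -0.08. The fit with no replicate block gave 193 rises and 81 falls, without pairing, and of 56 called named genes KCNE4, IL1A, CFB, HEY1 and DES were not called in it. For 8 h against 2 h, no filter gave 395 higher, 1 CPM in every library 133 higher, and no fold minimum 2955 higher and 2723 lower, while leaving out 1 animal gave 205 to 353 higher and 170 to 256 lower. With no replicate block it gave 193 and 189. For the difference between the ages, the likelihood-ratio test gave 7 higher and 0 lower, DESeq2 12 and 2, and leaving out 1 culture 0 to 2 higher and 0 to 1 lower, with 0 and 0 without the block. Pairing the ages by animal, also chosen after seeing the data, gave 0 and 0, and 19 higher and 2 lower without the 16-month replicate 3. The causes of these shifts were not tested. No called named gene changed sign. Among those not called, leaving out 1 animal took MCM6 from -0.09 to 0.01, and COL3A1 went to -0.01 (upper-quartile factors) and -0.02 (library size only), and for 8 h against 2 h it took CXCL2 from -0.15 to 0.34 and HAS2 from -0.51 to 0.02. With 3 animals and 1 culture each, p-values measure the spread between these cultures, and genes of a few reads at 0 h have folds bounded only by counting error.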

Other observations

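Some called genes outside the lists are given as values. They were picked after the values were seen, and no list of their pathways or families was tallied. LFNG, a glycosyltransferase that modifies Notch receptors, went from 17.1, 21.2 and 15.4 CPM to 114, 78.05 and 101 CPM (log2 change 2.52, SE 0.168, adjusted p = 0.00146 in edgeR), and the repressor HEY2 from 0.8297, 0.845 and 1.08 CPM to 4.0, 3.04 and 7.28 CPM (log2 change 2.38, SE 0.181, adjusted p = 0.00207). HEYL, in a window overlapping BMP8B, and HES4 were called with log2 changes of 1.32 and 2.07. AXIN2, a feedback inhibitor of Wnt signalling, went from 7.17, 7.15 and 7.17 CPM to 24.6, 18.1 and 22.1 CPM (log2 change 1.66, SE 0.0821, adjusted p = 0.0007), and WNT10B, FZD7 and TCF7 were called with log2 changes of 1.51, 1.10 and 1.04. The epithelial-mesenchymal repressor SNAI1 went from 4.2, 4.27 and 4.55 CPM to 37.3, 22.5 and 39.2 CPM (log2 change 2.96, SE 0.145, adjusted p = 0.000679). The glucose transporters SLC2A1 and SLC2A3 and the glycolytic regulator PFKFB3 rose by log2 changes of 1.18, 1.33 and 1.08.

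Transcription factors known from development were called in both directions. The homeobox genes DLX2 and MSX1 were called higher, with log2 changes of 2.02 and 1.41. IRX5, another homeobox gene, went from 20.8, 15.2 and 18.8 CPM to 4.74, 5.43 and 5.898 CPM (log2 change -1.67, SE 0.137, adjusted p = 0.00243 in edgeR) and OSR1 from 10.9, 7.84 and 14.6 CPM to 3.98, 3.92 and 3.89 CPM (log2 change -1.38, SE 0.199, adjusted p = 0.00994). IRX3 and PAX6 were called lower with log2 changes of -1.21 and -1.06. At 8 h IRX5 stood at 21.98, 13.2 and 20.5 CPM and OSR1 at 13.9, 9.32 and 14.5 CPM. Within the polo-like kinases, PLK3 rose from 14.2, 12.9 and 12.3 CPM to 63.2, 52.8 and 67.2 CPM while PLK2 fell from 128, 161 and 116 CPM to 31.5, 76.9 and 31.3 CPM. A similar contrast was seen in the Rnd proteins, where RND1 rose, as given above, and RND3 fell from 365, 268 and 376 CPM to 116, 144 and 137 CPM (log2 change -1.25, SE 0.159, adjusted p = 0.00706).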
